A study of Homo sapiens with 6 samples.

Results

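The mitochondrial carriers of the SLC25 family, with the uncoupling proteins and the carrier homologues MTCH1 and MTCH2, were described in HCT116 cells, a widely used line from a human colorectal carcinoma, that had been sorted for the surface protein CD133. Members were the genes whose probe sets carry a single symbol that begins with SLC25A, or is UCP1, UCP2, UCP3, MTCH1 or MTCH2, and where a gene had several probe sets the one with the highest average signal stood for it. This took 54 of 18404 genes. Of these, 51 are protein-coding carrier genes, and the other 3 are the pseudogene transcripts SLC25A51P1 and SLC25A51P4 and the antisense RNA SLC25A5-AS1, which are given apart. The carrier gene SLC25A6 was not analysed here. The 2 groups were CD133-positive and CD133-negative cells of that line, with 3 arrays each, numbered as repetitions 1, 2 and 3 in both. The labels name no drug, genotype change or time point. Being fractions of 1 cultured line, both groups share its genotype, and the labels do not say whether a repetition is a culture or a sort of its own. The p-values thus measure the spread between these arrays, which may be technical.

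Carriers of this family sit in the inner mitochondrial membrane and exchange nucleotides, phosphate, carboxylates, amino acids and cofactors between the cytosol and the matrix. They are nuclear-encoded, made in the cytosol and inserted through the TOM and TIM22 import complexes. In proliferating tumour cells they are known for feeding citrate, aspartate and one-carbon units from the mitochondrion to biosynthesis. UCP1 lets protons leak and makes heat in brown fat, whereas UCP2 is known to carry four-carbon acids out of the matrix.

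Values are the authors' log2 array signals from Robust Multichip Average, or RMA, so a difference of 1 is a doubling, and all differences are CD133-positive minus CD133-negative. Signals of different probe sets depend on their probes and were not ranked against each other. PROM1, the gene of CD133, had signals of 7.59, 7.36 and 7.09 in the positive and 5.30, 4.46 and 3.97 in the negative arrays of repetitions 1, 2 and 3, so the 3 positive arrays were above the 3 negative ones. The PROM1 difference was 2.77, with a limma adjusted p of 0.142 with the fraction as the only term and 0.0120 with repetitions as a block. The epithelial markers KRT8, KRT18, KRT19 and EPCAM had mean signals of 12.02, 11.39, 11.02 and 11.00, while VIL1 and LGALS4, of differentiated enterocytes, were at 4.53 and 5.40. Of the 9 epithelial markers 5 were higher and 4 lower in CD133-positive cells. KRT18 and KRT8 had differences of -0.48 and -0.24, CDH1, ELF3, EPCAM and LGALS4 of 0.40, 0.23, 0.22 and 0.17, and VIL1, CDX1 and KRT19 of -0.12, -0.08 and 0.04. Their limma adjusted p with the block lay between 0.0989 (KRT18) and 0.898 (KRT19), and their part in the results on carriers was not tested. The mean signals of the leukocyte gene PTPRC, the fibroblast genes LUM and DCN and the endothelial gene CDH5 were 2.39, 2.22, 2.66 and 4.47, while CD68 and COL1A1, from the leukocyte and fibroblast lists, were at 6.99 and 7.47. In these 4 marker lists, 0 genes passed the tests between fractions described next.

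Fractions were compared with limma, first with group as the only term and then with the repetition number as a block, and p-values were Benjamini-Hochberg adjusted over 28230 probe sets at a threshold of 0.05. UCP2, lower in CD133-positive cells, was the 1 carrier gene of 51 to pass, and it passed with the block only. Over all genes, 0.174% passed lower and 0.196% passed higher with the block, and 0.00543% passed in either direction with group as the only term. With that term alone 0 of 51 carriers passed, and 2 (3.92%) had an unadjusted limma p under 0.05, against 3.47% of all genes. Unadjusted p under 0.05 with the block was reached by 10 of 51 carriers (19.6%), 8 higher and 2 lower, against 11.6% of all genes. Of the 18404 genes, 1086 reached it higher and 1055 lower.

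Most carriers differed little, and more were higher than lower. Of the 51, 33 had a difference above 0 (64.7%), against 47.9% of all genes. Their median difference was 0.057, against -0.0064 for all genes. Within repetitions 1, 2 and 3 the carriers' median was 0.047, 0.089 and 0.037, and that of all genes was -0.012, 0.015 and -0.016. Higher signal in all 3 repetitions was seen for 17 carriers (33.3%; 17.7% of all genes) and lower signal in all 3 for 9 (17.6%; 18.4% of all genes). The fractions did not overlap for 2 carriers that were higher, SLC25A39 and SLC25A43, and for 2 that were lower, UCP2 and SLC25A24. Each count is 3.92% of carriers, against 3.43% of all genes higher and 4.52% lower. The carriers' median became 0.020 without the CD133-positive array of repetition 2, which also unbalances the repetitions.

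**Figure D1:**
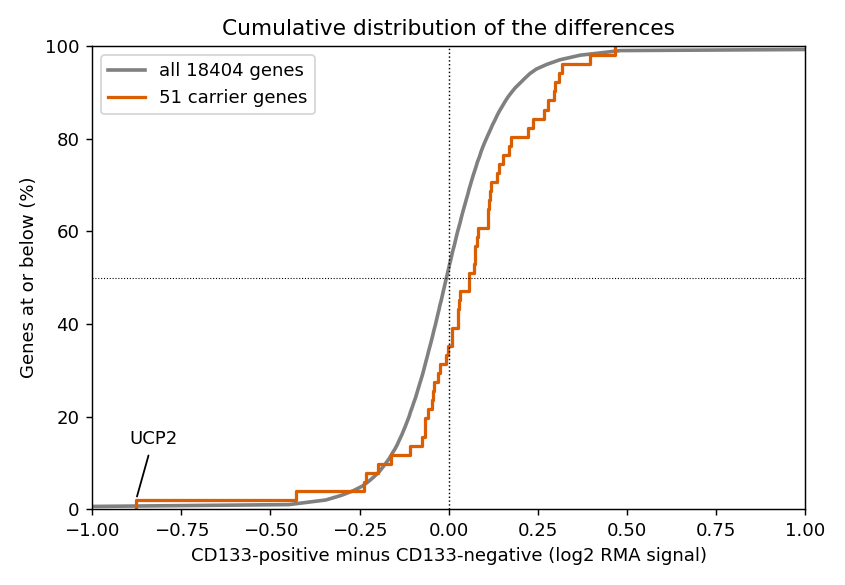
Cumulative share of genes (%) at or below each difference between fractions (CD133-positive minus CD133-negative, log2 RMA signal) for the 51 carrier genes and for all 18404 genes. The carriers' line lies to the right of that of all genes through its middle, with medians of 0.057 and -0.0064, and UCP2 stands at the far left at -0.88.

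UCP2 signal in repetitions 1, 2 and 3 was 6.37, 6.36 and 6.53 in CD133-positive cells and 7.15, 7.22 and 7.52 in CD133-negative cells. The highest positive array was thus below the lowest negative array, and each repetition showed a gap of similar size, -0.78, -0.86 and -0.99. Mean signal was 6.42 ± 0.10 against 7.30 ± 0.20 (SD, n = 3 each), so UCP2 fell by 0.88 on the log2 scale (SE 0.085 with the block), which is 1.84-fold, with a limma adjusted p of 0.0275 with the block and 0.226 with group as the only term. Over the 20 ways to split the arrays, an exact permutation test (two-sided) gave p = 0.1, the smallest it can give. The call with the block rests on all 3 repetitions. Without repetition 1, 2 or 3 the limma adjusted p was 0.0554, 0.0934 and 0.156, and with the leading rows that name no gene included it was 0.145.

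None of the other 5 members of the uncoupling group passed in either fit. UCP3, a carrier of skeletal muscle, had signals of 5.11, 5.50 and 5.16 in positive and 5.28, 5.19 and 5.42 in negative arrays, and its fractions overlapped. Its difference was -0.04, with a 95% interval of -0.35 to 0.26 from the fit with the block. UCP1, the brown fat protein, had a difference of 0.03 (95% interval -0.16 to 0.22) at a mean signal of 3.90. SLC25A30, a kidney-enriched relative, was at -0.05. SLC25A14 and SLC25A27, also named UCP5 and UCP4 and best known from brain, were at 0.24 and 0.32, and both were higher in 3 of 3 repetitions (limma adjusted p with the block 0.389 and 0.398). SLC25A27 had signals of 5.51, 4.42 and 4.91 in positive and 4.91, 4.11 and 4.87 in negative arrays, so its repetitions lay further apart than its fractions. Whether UCP2 differed from each relative in its response was not tested.

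The promoters of the 3 carriers with the largest differences in the fit with the block, UCP2, SLC25A44 and SLC25A13, are shown because these genes lead the list in each direction. Each sequence is the 250 bases before an annotated RefSeq start in GRCh38.p14, written 5′ to 3′ on the gene's strand, and for UCP2, which has 2 such windows, the one further upstream was taken. Capitals mark matches, on either strand, to a GC box (GGGCGG), to the letters CCAAT, called the CCAAT box, or to an E box (CACGTG). The windows are UCP2 at chr11:73983203-73983452 (minus strand), SLC25A44 at chr1:156193854-156194103 (plus strand) and SLC25A13 at chr7:96322099-96322348 (minus strand).
UCP2: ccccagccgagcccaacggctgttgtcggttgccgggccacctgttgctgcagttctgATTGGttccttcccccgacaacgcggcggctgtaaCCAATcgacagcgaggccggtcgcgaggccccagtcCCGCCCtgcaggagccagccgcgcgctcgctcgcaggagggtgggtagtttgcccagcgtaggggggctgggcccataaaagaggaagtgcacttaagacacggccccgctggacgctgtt
SLC25A44: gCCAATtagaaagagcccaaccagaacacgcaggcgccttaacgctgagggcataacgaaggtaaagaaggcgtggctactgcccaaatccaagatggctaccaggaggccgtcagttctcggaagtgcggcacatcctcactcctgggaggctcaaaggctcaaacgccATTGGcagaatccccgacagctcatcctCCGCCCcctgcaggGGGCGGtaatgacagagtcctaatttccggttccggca
SLC25A13: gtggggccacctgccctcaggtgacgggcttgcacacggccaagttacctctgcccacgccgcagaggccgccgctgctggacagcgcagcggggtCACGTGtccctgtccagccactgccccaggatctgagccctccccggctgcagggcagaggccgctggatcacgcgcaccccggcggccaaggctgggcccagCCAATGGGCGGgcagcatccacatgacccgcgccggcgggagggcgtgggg

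The UCP2 window held 1 GC box and 2 CCAAT boxes, beginning 192 and 157 bases before the start, and no E box. SLC25A44 held 2 GC boxes and 2 CCAAT boxes. SLC25A13 held 1 GC box, 1 CCAAT box beside it and an E box beginning 154 bases before the start. Of the 51 carriers, 44 matched the promoter table, with 57 windows. A GC box was in 66.7% of these windows against 53.7% of all 22132 windows of protein-coding genes, a CCAAT box in 36.8% against 32.7%, and an E box in 15.8% against 7.37%. The letters TATAAA were in 7.02% of carrier windows (9% of all), GCGCATGC, the core of the NRF1 motif, in 1.75% (3.27% of all), and AAGGTCA, an element bound by nuclear receptors, in 1.75% (2.87% of all). All motifs were searched on both strands, and none of these last 3 was in the printed windows. A match is a string of letters and was not tested as a binding site.

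Among the carriers of di- and tricarboxylates and oxoacids, 4 of 6 were higher and 2 lower in CD133-positive cells, with a median of 0.23, and 0 passed. Within repetitions 1, 2 and 3 the group's median was lower, at 0.0090, 0.22 and 0.072. SLC25A10, the dicarboxylate carrier that exchanges malate and succinate for phosphate, had signals of 7.75, 8.21 and 7.82 in positive and 7.59, 7.90 and 7.11 in negative arrays. It was higher in 3 of 3 repetitions by 0.16, 0.31 and 0.71, although the fractions overlapped. The mean difference was 0.40 (SE 0.12, limma adjusted p = 0.308 with the block). SLC25A11, which exchanges oxoglutarate for malate in the malate-aspartate shuttle, was at 0.17 and higher in 3 of 3 repetitions. SLC25A1, the citrate carrier that supplies carbon for lipid synthesis, was at -0.06 (95% interval -0.28 to 0.16).

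SLC25A21, the oxodicarboxylate carrier of lysine and tryptophan breakdown, did not keep its direction. Its signals were 4.86, 5.11 and 3.73 in positive and 4.19, 4.51 and 4.10 in negative arrays. It was higher in repetitions 1 and 2 and lower in repetition 3, by -0.37, so its mean of 0.29 has a 95% interval of -0.19 to 0.78. SLC25A35 had differences of -0.11, 0.49 and 0.55 in repetitions 1, 2 and 3, with a mean of 0.31. SLC25A34 was at -0.16, with -0.17, -0.14 and -0.17 within repetitions, and its adjusted p was 0.508 in limma with the block. SLC25A34 and SLC25A35 were counted in the di- and tricarboxylate group although their substrates are not firmly known.

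Amino acid and carnitine carriers had 7 of 10 members higher, with a median of 0.11, and 0 passed. Both aspartate-glutamate carriers, which move aspartate out of the matrix and complete the malate-aspartate shuttle, were higher in 3 of 3 repetitions. SLC25A13, or citrin, had signals of 7.17, 7.74 and 7.04 in positive and 6.75, 7.33 and 6.48 in negative arrays. Each positive array exceeded the negative array of its own repetition, by 0.42, 0.41 and 0.56, while the fractions overlapped, with repetition 2 high in both. The mean difference was 0.47 (SE 0.083 with the block and 0.26 without), 1.38-fold, with a limma adjusted p of 0.113 with the block and 1.00 with group as the only term. It passed with the block in 2 of the alternatives added after the data were seen, at 0.0252 when only probe sets above the median mean were tested and at 0.0361 with a trend in the prior variance. In the others the limma adjusted p was 0.134 with repeated quantile normalization, 0.115 with median centring and 0.277 with the leading rows included. SLC25A12, or aralar, had signals of 6.95, 7.00 and 6.60 in positive and 6.59, 6.81 and 6.27 in negative arrays, a difference of 0.30 (SE 0.084, limma adjusted p = 0.270 with the block).

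SLC25A44, a carrier of branched-chain amino acids, ran the other way. Its signals were 6.42, 6.92 and 6.53 in positive and 6.98, 7.28 and 6.89 in negative arrays, lower in 3 of 3 repetitions by -0.56, -0.36 and -0.36. The fractions overlapped between the positive array of repetition 2 and the negative array of repetition 3. The mean difference was -0.43 (SE 0.087, 95% interval -0.64 to -0.22), with a limma adjusted p of 0.151 with the block. Among the alternatives added after the data were seen, the block gave a limma adjusted p of 0.0385 when only probe sets above the median mean were tested. It gave 0.0631 with a trend in the prior variance, 0.149 with repeated quantile normalization and 0.307 with the leading rows included. SLC25A22, a glutamate carrier, was at 0.22 and higher in 3 of 3 repetitions, and its paralogue SLC25A18 was at -0.07. SLC25A15, the ornithine carrier of the urea cycle, and its paralogue SLC25A2 were at 0.14 and 0.11, and these 2 sequences are similar enough that their probes may share signal. The glycine carrier SLC25A38, needed for haem synthesis, was at 0.11, the acylcarnitine carrier SLC25A20 at 0.11 and the basic amino acid carrier SLC25A29 at -0.0034.

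**Figure D2:**
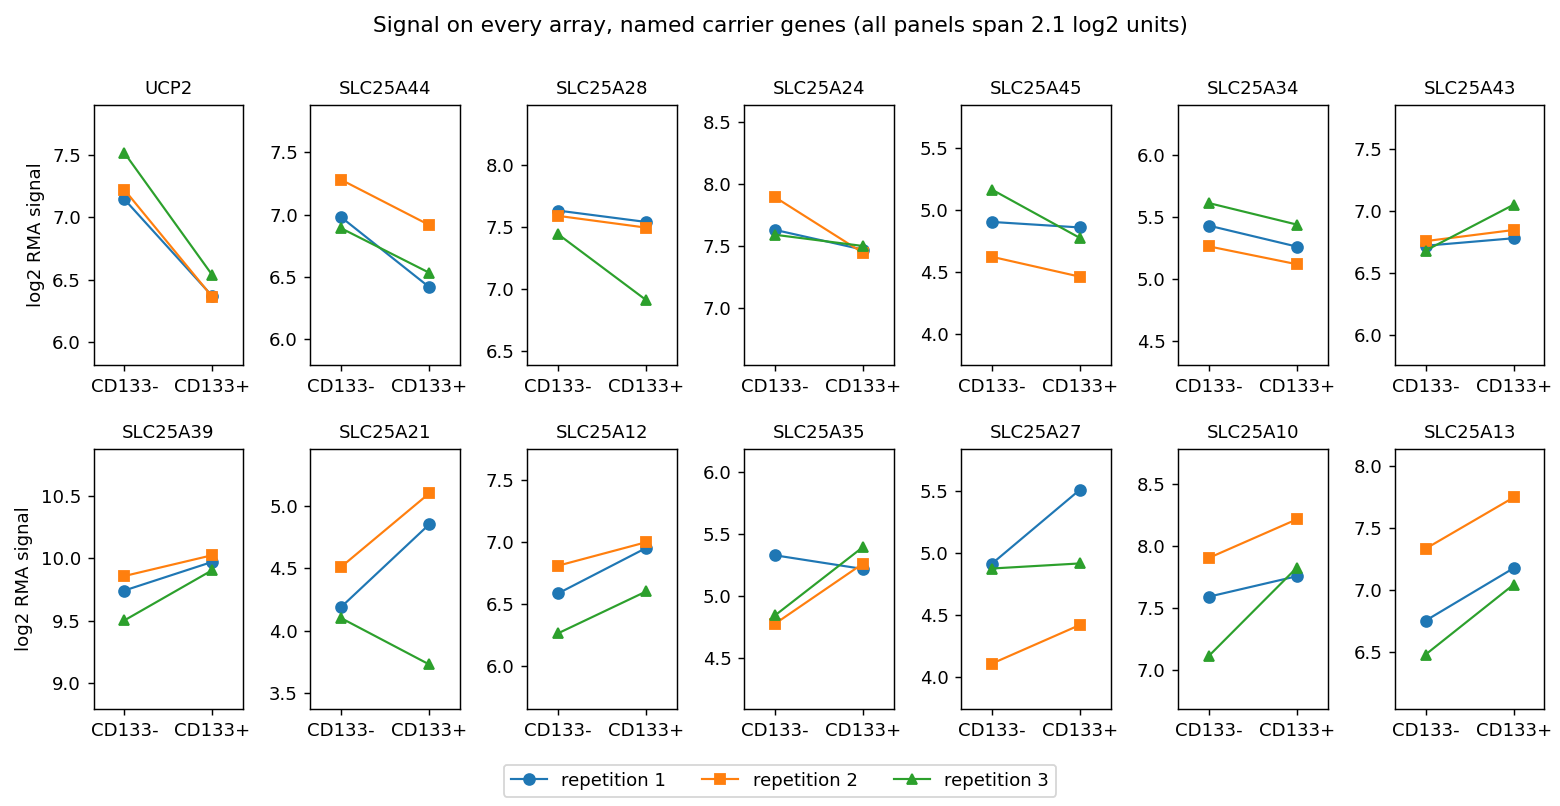
Log2 RMA signal on all 6 arrays for the 14 carriers with non-overlapping fractions or the largest differences, in order of the difference, with each line joining the CD133-negative and CD133-positive array of a repetition and every panel spanning the same range. The 3 UCP2 differences are -0.78, -0.86 and -0.99, the 3 of SLC25A13 are 0.42, 0.41 and 0.56, and the SLC25A21 line of repetition 3 runs against the other two.

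The carriers of adenine nucleotides and phosphate, which serve ATP export and synthesis, had 4 of 9 members higher and 5 lower, with a median of -0.0077, and 0 passed. SLC25A3, the phosphate carrier, had signals of 10.64, 10.67 and 10.48 in positive and 10.68, 10.70 and 10.60 in negative arrays, a difference of -0.07 (95% interval -0.26 to 0.13). The ADP/ATP translocases SLC25A4 and SLC25A5 had differences of 0.03 (95% interval -0.17 to 0.22) and 0.08 (-0.16 to 0.32). SLC25A5 has many processed pseudogenes, so its probe set may read more than 1 locus. The germ cell translocase SLC25A31 was at -0.0077 with a mean signal of 2.90.

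SLC25A24, a calcium-regulated carrier of ATP-magnesium and phosphate, was the member of this group whose fractions did not overlap. Its signals were 7.47, 7.45 and 7.50 in positive and 7.63, 7.89 and 7.59 in negative arrays, a difference of -0.23 (SE 0.099, limma adjusted p = 0.454 with the block). The gap to the nearest negative array was small beside the spread of the negative arrays (SD 0.16). Its paralogues SLC25A23, SLC25A25 and SLC25A41 were at 0.07, -0.07 and -0.11, and the peroxisomal carrier SLC25A17 at 0.15.

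Carriers of cofactors, pyrimidine nucleotides, metals and glutathione had 9 of 12 members higher, with a median of 0.066, and 0 passed. SLC25A39, a carrier needed for mitochondrial glutathione, had signals of 9.97, 10.03 and 9.91 in positive and 9.74, 9.86 and 9.50 in negative arrays. The lowest positive array was above the highest negative one. The difference was 0.27 (SE 0.088, limma adjusted p = 0.336 with the block), and that of its paralogue SLC25A40 was -0.03. SLC25A26, which brings S-adenosylmethionine into the matrix for methylation reactions, was higher in 3 of 3 repetitions with a mean of 0.28 (limma adjusted p = 0.313 with the block).

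The mitoferrins, which carry iron for haem and iron-sulphur clusters, had opposite signs. SLC25A28 had signals of 7.54, 7.49 and 6.91 in positive and 7.63, 7.59 and 7.44 in negative arrays, a difference of -0.24 that rests mostly on repetition 3 (-0.53, against -0.09 in each of the others). SLC25A37 was at 0.11, and its other probe set gave 0.11, with differences of 0.42, -0.16 and 0.06 in repetitions 1, 2 and 3. The 95% intervals with the block were -0.51 to 0.03 for SLC25A28 and -0.09 to 0.31 for SLC25A37, so both include 0. The pyrimidine nucleotide carriers SLC25A33 and SLC25A36 were at 0.14 and 0.0088, with 0.18 on the other SLC25A33 probe set. The folate carrier SLC25A32 was at 0.07, the coenzyme A carriers SLC25A42 and SLC25A16 at 0.06 and -0.03, and the NAD carriers SLC25A51 and SLC25A52 at 0.12 and 0.03. SLC25A52 had a mean signal of only 2.28. For SLC25A51 the 2 probe sets gave 0.12 and 0.04, and the 0.12 rests mostly on repetition 3, with -0.09, 0.05 and 0.41 within repetitions.

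The outer membrane relatives, which have left transport for protein insertion and membrane shape, were all 3 above 0, with a median of 0.074 and 0 passing. The insertases MTCH2 and MTCH1 were at 0.03 (95% interval -0.16 to 0.22) and 0.07 (-0.13 to 0.28), and SLC25A46, a protein of mitochondrial dynamics, at 0.08. Among the 5 carriers of less certain substrate, SLC25A43 had signals of 6.78, 6.84 and 7.05 in positive and 6.72, 6.75 and 6.68 in negative arrays. Its fractions did not overlap, but by a narrow gap, and its difference of 0.17 had a limma adjusted p of 0.565 with the block. SLC25A45 was lower in 3 of 3 repetitions at -0.20, and SLC25A47, SLC25A48 and SLC25A53 were at 0.0080, 0.06 and -0.04. The 3 transcripts that are no carrier genes, SLC25A51P1, SLC25A51P4 and SLC25A5-AS1, were at -0.06, 0.02 and -0.02.

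**Figure D3:**
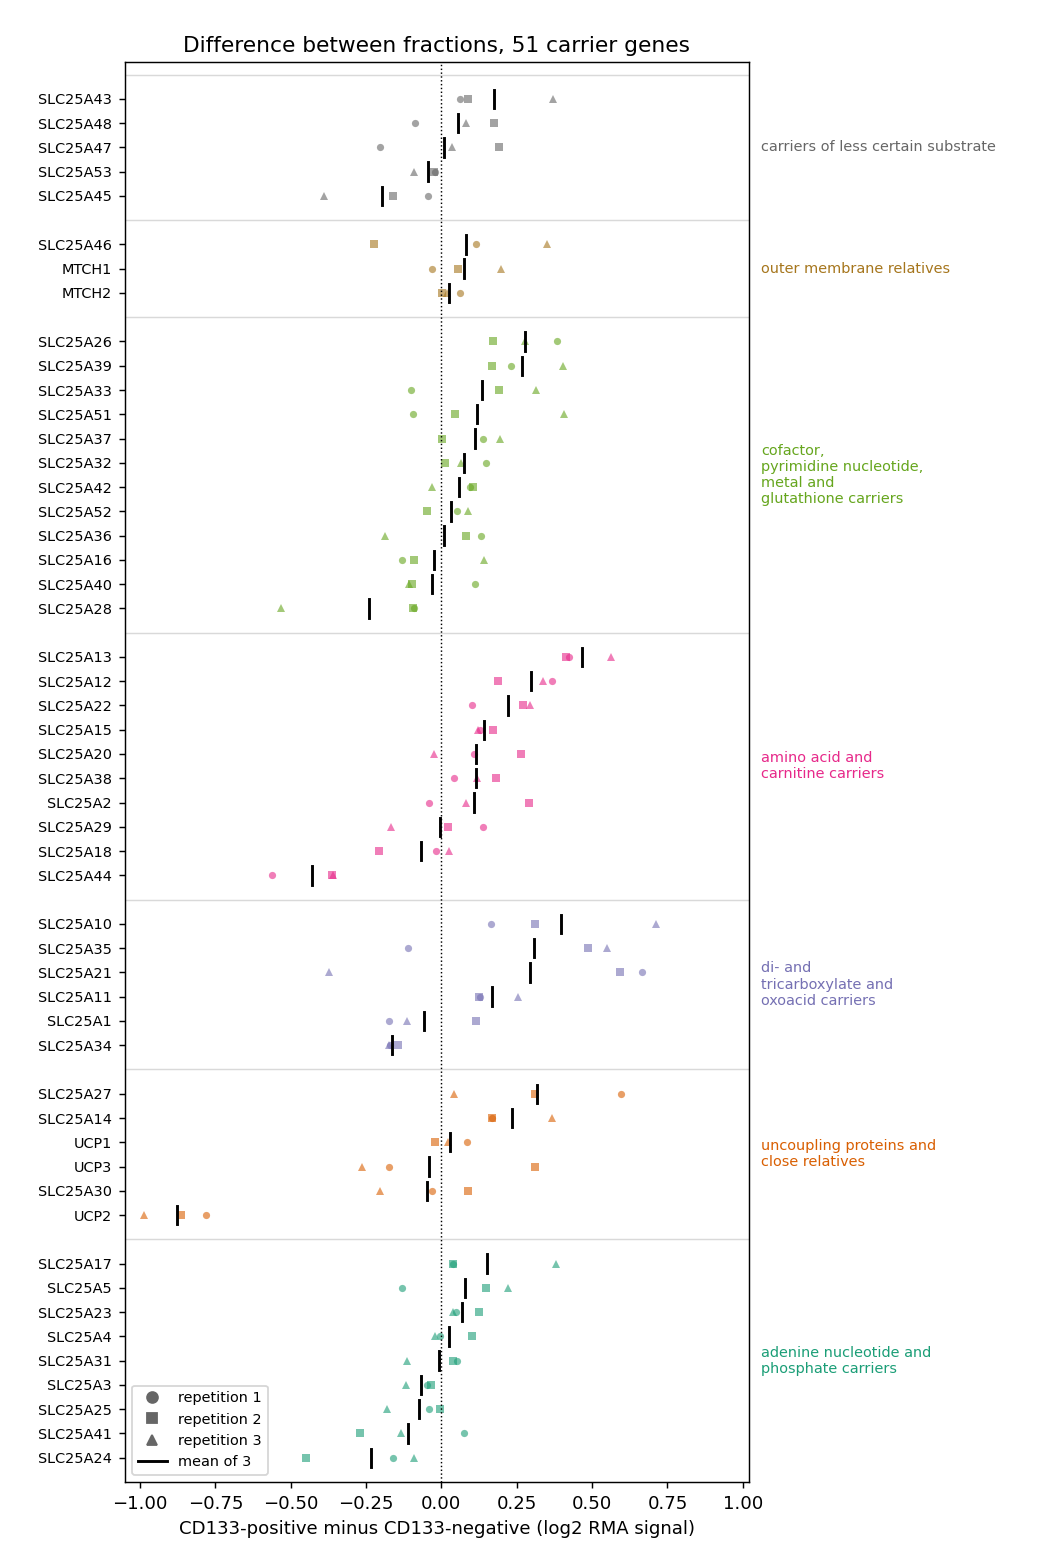
Difference between fractions (CD133-positive minus CD133-negative, log2 RMA signal) for the 51 carriers, grouped by role, with a point for each repetition and a bar at the mean of 3. The 3 UCP2 points lie between -0.99 and -0.78, apart from its relatives, while both aspartate-glutamate carriers, SLC25A13 and SLC25A12, have all 3 points above 0.

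Levels varied more between repetitions than between fractions, for carriers as for all genes. Repetition took 68.3% of the carriers' variance over the arrays, fraction 21.9% and the remainder 9.84%, against 69.8%, 17.0% and 13.3% over all genes. The shares are raw sums of squares, in which 3 repetitions take more than 2 fractions from random spread alone. They are pooled over genes, so a large difference such as that of UCP2 (-0.88) weighs heavily in the carriers' fraction share. A share without UCP2 was not computed. The limma F test of the repetitions, in the fit that also holds the fraction, called 10 of 51 carriers (19.6%), against 15.3% of all genes. Repetition means were highest in repetition 2 for 6 of these 10, namely SLC25A15, SLC25A13, SLC25A32, SLC25A17, SLC25A25 and SLC25A26. They were highest in repetition 1 for SLC25A27 and SLC25A40, and in repetition 3 for SLC25A37 and SLC25A23. Of the 2817 genes called over all genes, 1710 were highest in repetition 2, 477 in repetition 1 and 630 in repetition 3. The carriers' split was thus much like that of all genes.

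SLC25A15 had the smallest p, with 8.49 and 8.32 in the positive and negative arrays of repetition 2, against 7.69 and 7.56 in repetition 1 and 7.50 and 7.38 in repetition 3 (limma adjusted p = 0.0137). Both arrays of repetition 2 were above the other 4, and the positive array led in each repetition by 0.12 to 0.17. SLC25A32 showed the same order, with 10.22 and 10.21 in repetition 2 and 9.57 to 9.72 elsewhere (adjusted p = 0.0244). SLC25A37 ran against it, with 8.37 in both arrays of repetition 2 and 8.87 to 9.12 in the others (adjusted p = 0.0242). Its other probe set was also lowest in repetition 2 but was not called (limma F test adjusted p = 0.131). For SLC25A33 and SLC25A51 the probe sets used were not called (adjusted p = 0.0747 and 0.132), whereas their other probe sets were (0.0146 and 0.0199). The repetition calls of these genes thus depend on the probe set. UCP2 was not among the 10, with repetition means of 6.76, 6.79 and 7.03 (adjusted p = 0.183), so for this gene the fractions were further apart than the repetitions.

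Over all 51 carriers, repetition 2 had the highest mean for 26 (51%), against 35.3% of all genes. With repeated quantile normalization these were 23 carriers (45.1%; 37.2% of all genes), and with arrays centred on their medians 35 (68.6%; 52.4% of all genes). The count of 10 called carriers depends on the settings. It was 19 (37.3%) with median centring, where 20.9% of all genes were called, and 23 of the 38 carriers above the median mean (60.5%), where 48.9% of the genes kept were called. It was 0 with the leading rows included, where 0.168% of all genes were called. Without the repetition 1 array of either fraction 6 carriers were called (11.8%), against 7.74% of all genes without the CD133-positive and 9.32% without the CD133-negative array. Without the CD133-positive array of repetition 2 it was 1 carrier, against 3.43% of all genes, and without any of the other 3 arrays 0, against 0.217% to 0.777%. What distinguished the repetitions is not given in the labels and was not tested.

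**Figure D4:**
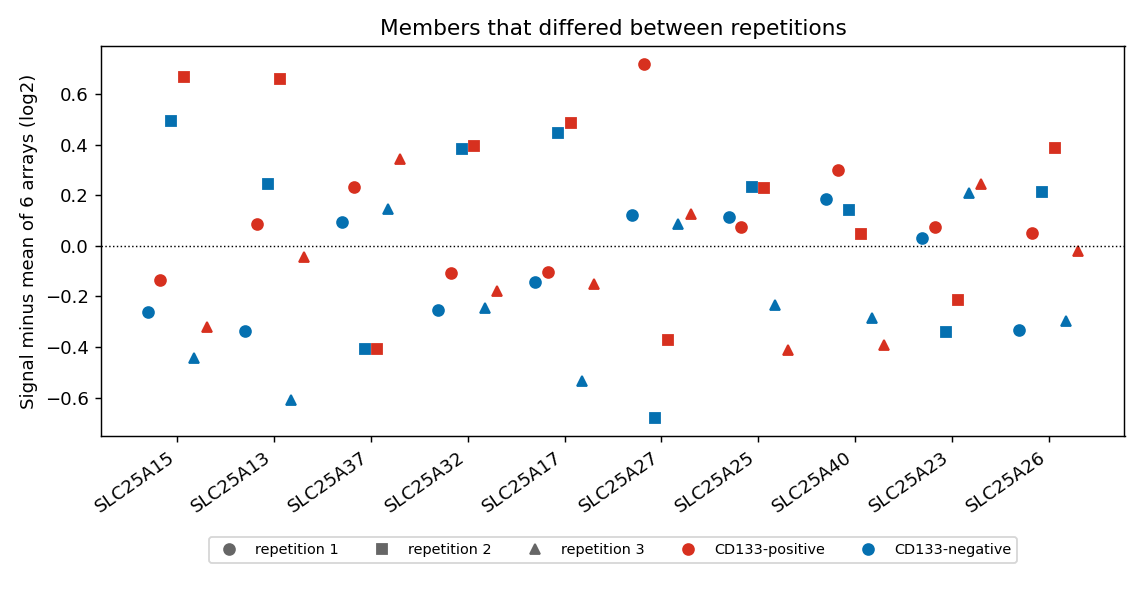
Log2 signal of each array minus the mean of 6 for the 10 carriers called by the F test of repetitions, with marker shape for repetition and colour for fraction. Both arrays of repetition 2 are above the other 4 for SLC25A15, SLC25A13, SLC25A32, SLC25A17, SLC25A25 and SLC25A26, and below them for SLC25A37, SLC25A27 and SLC25A23.

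Genes that work beside the carriers showed no calls between fractions. The carrier import list held TOM and TIM22 components, their chaperones and the matrix chaperonin gene HSPD1. Of its 20 genes, 17 were measured and 12 were higher, with a median of 0.078. The small TIM chaperones TIMM10 and TIMM8A had the smallest p, at 0.24 and 0.27 (limma adjusted p = 0.357 and 0.431 with the block). Other mitochondrial transporters, listed with related proteins such as CPT2 and MICU2, had 16 of 21 measured members higher, with a median of 0.060. They were led by ABCB6, a porphyrin transporter, at -0.29 and SFXN4, a sideroflexin, at 0.31 (limma adjusted p = 0.284 and 0.309 with the block). Carrier-linked enzymes had 8 of 17 measured members higher, with a median of -0.020. In that list CRAT, the carnitine acetyltransferase that works with SLC25A20, was at -0.58 (limma adjusted p = 0.0635 with the block), and GPD2, of the glycerol phosphate shuttle, at 0.15. Regulators of mitochondrial biogenesis had 9 of 18 members higher, with a median of 0.0046, and the nuclear receptor genes PPARG and PPARA were at 0.33 and -0.29 (adjusted p = 0.209 and 0.284 with the block). In these 4 lists 0 members passed between fractions in either limma fit. At an unadjusted p under 0.05 with the block there were 2, 5, 1 and 3, or 11.8%, 23.8%, 5.88% and 16.7% of the measured members, against 11.6% of all genes. Between repetitions the limma F test called 7, 6, 5 and 4 of them (41.2%, 28.6%, 29.4% and 22.2%), against 15.3% of all genes.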

How the data were processed

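Total RNA of the sorted cells was labelled by a whole-transcript biotin protocol and put on Affymetrix arrays, as the labels' protocols state. The deposited values were log2 RMA signals made by the authors, per the labels' design text, with no software version named; their range, 1.09 to 13.7, is that of a log2 scale. The design text names a U133 chip, but the row identifiers match the annotation of a whole-transcript Gene ST array, which was used for gene names. Of 32321 rows, the leading 4091, before any row with a gene, were left out as presumed controls. That reading rests on their position alone, as the data do not say what they are. Of the 28230 probe sets tested, 19158 carried 1 symbol, 1388 several and 7684 none. Array medians lay between 5.44 and 5.60. Having 3 arrays per fraction sets the limit of precision.

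The R package limma 3.58.1 (R 4.3.3) fitted each probe set on group alone and on group with a repetition block, with moderated variances. Arrays that share a number deviated together from their group means (correlations of 0.447, 0.616 and 0.589, all 3 above a bound of 0.1), so the numbers pair the arrays by the data; the labels state no shared day or culture. Both fits were also run on simulated arrays built from the block fit with known changes added. That run checked the code only and cannot tell whether the block suits the real arrays. The members, roles, partner lists and rules were chosen with earlier results of these data known. Members named in full passed in either fit, had fractions that did not overlap, or had one of the 6 largest differences per direction; in each partner list the 2 smallest p with the block were named. Alternatives were repeated quantile normalization, median centring, a filter on dim probe sets, the leading rows included, a trend in the prior variance and arrays left out. Promoter sequences are RefSeq's, in GRCh38.p14.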

Additional observations from a re-analysis of the deposited data

How the results depend on the processing

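With group as the only term, UCP2 kept its direction and missed the threshold under each alternative run, with differences of -0.95 to -0.77 and limma adjusted p of 0.460 to 0.805 without single arrays. The replicate block gave 1 called carrier, UCP2 (difference -0.88, adjusted p = 0.0275). The block was then combined with other settings, chosen after seeing the data. UCP2 passed with repeated quantile normalization (difference -0.89, adjusted p = 0.0416; 1 carrier called), with median centring (-0.87, 0.0295; 1 called), with probe sets above the median mean (-0.88, 0.00347; 3 called, with SLC25A13 and SLC25A44) and with a trend in the prior variance (-0.88, 0.00456; 2 called, with SLC25A13). With the leading rows included 0 passed. Leaving out repetition 1, 2 or 3 with the block left differences of -0.92 to -0.82 and 0 calls; these fits have fewer arrays. The median over carriers was 0.050 to 0.074 under other normalizations and filters, 0.044 with the 3 non-carrier transcripts, and 0.020 to 0.071 without single arrays, where the CD133-positive array of repetition 2 gave the lowest. Carriers with a difference above 0 numbered 32 with quantile normalization and 34 with centring. Calls between repetitions moved from 10 to 19 with centring, 23 with the filter, 0 with the leading rows and 0 to 6 without single arrays; the cause was not tested. None of the 14 carriers in the plot of signal on all arrays changed direction under these alternatives. With group as the only term, 12 of them, all but UCP2 and SLC25A44, moved by over 1.5 times when 1 array was left out. Leaving out 1 array also unbalances the repetitions, so these moves mix in differences between repetitions. With the block and a whole repetition left out, SLC25A13 was at 0.42 to 0.49 and SLC25A12 at 0.26 to 0.35, but SLC25A21 at 0.11 to 0.63. In the single-array fits, the value nearest 0 was 0.04 for SLC25A27 without the CD133-positive array of repetition 1. Without the CD133-positive array of repetition 2 it was 0.02 for SLC25A21 and 0.25 for SLC25A13, and without that of repetition 3 it was -0.04 for SLC25A28 and 0.09 for SLC25A43. Without the CD133-negative array of repetition 3 it was 0.18 for SLC25A10, 0.15 for SLC25A12, 0.17 for SLC25A39, -0.06 for SLC25A45 and -0.07 for SLC25A34, and without that of repetition 2 it was -0.14 for SLC25A24 and 0.21 for SLC25A35.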
